A study of Homo sapiens with 4 samples.

Results

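The mRNAs of the DEAD and DEAH box helicases were followed through an EXOSC10 RNA immunoprecipitation. A gene was a member when its symbol was DDX followed by a number and at most 1 letter, or DHX followed by a number, and 49 of the 12838 gene symbols in the deposited table were kept. Of these, 34 were DDX and 15 were DHX symbols. DDX12P, a transcribed pseudogene and a near-identical copy of DDX11, met the rule and was kept. DDX19B, DDX25, DDX43, DDX53, DDX60 and DHX58 were not analysed here. The gene listed as DDX58, which encodes the RNA sensor RIG-I, now has the symbol RIGI.

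DEAD and DEAH box proteins are ATP-dependent RNA helicases named after a sequence of their ATPase core. DEAD box members separate short duplexes or clamp RNA, and DEAH box members move along a strand and pull RNA out of large complexes. Together they drive pre-mRNA splicing, mRNA export, translation initiation, mRNA decay and the assembly of ribosomes. Their own mRNAs, not the proteins, were measured in these libraries.

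LM2-4175 cells derive from lung metastases of the breast carcinoma line MDA-MB-231. All cells carried a doxycycline-inducible construct of CerS4, a ceramide synthase, and were grown under puromycin and hygromycin. Cells received doxycycline at 5 µg/mL for 48 h or no doxycycline, and RNA was recovered with an antibody to EXOSC10, the nuclear exoribonuclease of the RNA exosome, or with control IgG. The 4 groups were doxycycline with EXOSC10, untreated with EXOSC10, doxycycline with IgG and untreated with IgG, with 1 library per group. The study asked how mRNA degradation tied to a complex of PD-L1 with Caprin-1 behaves when lipid metabolism is altered, and its main comparison was EXOSC10-bound RNA with and without doxycycline. The labels do not say whether the line is a clone, whether the cultures were separate, or whether a doxycycline control without the construct was made.

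Reads were estimated from the deposited CPM, in which each library sums to 1000000, and ran from 3723285 to 7575126 per library. With EXOSC10, ribosomal RNA took 56.3% of the doxycycline reads and 75.8% of the untreated reads. With IgG, it took 83.8% of the doxycycline reads and 71.7% of the untreated reads. Reads on other genes numbered 2408179 in the doxycycline EXOSC10 library and 1023364 to 1229742 in the other libraries. All 10 listed markers of the mesenchymal LM2-4175 line were measured, with the most reads on VIM and ITGB1 in the EXOSC10 libraries and the doxycycline IgG library and on VIM and SPARC in the untreated IgG library, while of 6 blood and immune markers LYZ was measured, at 0 to 15 reads. ESR1 and EPCAM, of 10 luminal or epithelial markers, had no entry analysed here, and the other 8 had 2494 and 919 reads together in the doxycycline and untreated EXOSC10 libraries, against 383 and 396 reads in the doxycycline and untreated IgG libraries. The LM2-4175 markers together had 10951 and 4611 reads with EXOSC10, doxycycline and untreated, against 4517 and 4470 with IgG, and S100A4 among them had 0 to 22. These are raw sums from libraries of unlike depth. By the scaling and limits given below, FOXA1 was higher and GATA3 lower over IgG, of 5 luminal markers in doxycycline cells. In untreated cells 0 of 3 were higher and 0 lower. Of 8 LM2-4175 markers, FOSL1 was higher and VIM and AXL lower in doxycycline cells. CD44 was higher and VIM, AXL and SPARC lower in untreated cells, also of 8. Of all features, 13.3% were higher and 27% lower in doxycycline cells, and 4.97% and 37% in untreated cells. The part of any marker difference in the results was not tested. Recovery of fewer RNA molecules and a smaller amount of an mRNA in the cells cannot be told apart here, nor can fewer cells and less RNA per cell.

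Levels were compared as CPM after TMM scaling (a trimmed mean of log ratios), which sets the bulk of genes equal between libraries. All directions are relative to that bulk. Scaling to the total count adds 2.50 to each log2 ratio of EXOSC10 over IgG in doxycycline cells and 0.82 in untreated cells, and scaling to the reads outside ribosomal RNA adds 1.07 and 1.05. Calls by these scalings are printed beside the TMM calls below.

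Sequences just upstream of the start sites were compared for the 12 members that were lower with EXOSC10 in the antibody test described below, and 5 of them are shown. They belong to the members with the smallest p and to DDX3X and DHX15, the members counted below for a change with doxycycline under TMM scaling. Each is the strand of the gene over the 100 bases before its start in RefSeq (GRCh38.p14), and capitals mark the letters CCGGAAG, a core of ETS-factor binding sites searched on both strands.
DHX15 (chr4:24584555-24584654, minus strand): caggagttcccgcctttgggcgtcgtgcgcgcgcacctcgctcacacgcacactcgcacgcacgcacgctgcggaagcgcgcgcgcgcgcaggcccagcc
DDX3X (chrX:41333208-41333307, plus strand): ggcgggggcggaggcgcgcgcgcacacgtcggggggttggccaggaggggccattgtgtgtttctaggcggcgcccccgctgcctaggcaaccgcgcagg
DDX1 (chr2:15591768-15591867, plus strand): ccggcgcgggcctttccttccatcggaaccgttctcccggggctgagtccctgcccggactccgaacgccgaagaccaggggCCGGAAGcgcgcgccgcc
DDX50 (chr10:68901215-68901314, plus strand): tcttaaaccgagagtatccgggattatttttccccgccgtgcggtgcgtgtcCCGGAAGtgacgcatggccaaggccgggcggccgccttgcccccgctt
DDX39B (chr6:31542004-31542103, minus strand): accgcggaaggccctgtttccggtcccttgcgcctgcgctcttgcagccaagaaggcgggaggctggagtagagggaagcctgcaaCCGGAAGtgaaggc

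DDX1, DDX50 and DDX39B held the letters on the strand shown, and DDX3X and DHX15 did not hold them on either strand. Promoter entries were matched for 44 of the 49 members, and 12 of them (27.3%) held the letters within this window. Among measured symbols with an entry the share was 10.95% (1099 of 10033), and among all genes with an entry it was 5.94% (1622 of 27305). The members that were lower with EXOSC10 held them in 3 of 12 cases and the other members in 9 of 32 cases, so the letters did not set these members apart. A match is a description of the sequence only.

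Helicase mRNAs were measured deeply for a few members and thinly for the rest. They received 18153 and 8641 reads in the doxycycline and untreated EXOSC10 libraries, against 17263 and 12824 reads in the doxycycline and untreated IgG libraries. Of the reads outside ribosomal RNA these made up 0.754% and 0.844% in the doxycycline and untreated EXOSC10 libraries, against 1.40% and 1.22% in the doxycycline and untreated IgG libraries. Summed over all members, the EXOSC10 shares were both below the IgG shares. DDX5, DDX3X and DHX15 held 50.2% and 58.4% of the members' reads in the doxycycline and untreated EXOSC10 libraries, against 76.5% and 68.8% in the doxycycline and untreated IgG libraries. That is 9104 and 5046 reads with EXOSC10, doxycycline and untreated, against 13215 and 8818 with IgG. The shares without these members were not calculated, so the lower EXOSC10 shares are not read as a trait of the family. Reads rise with transcript length, which was not available, so levels were not ranked between genes.

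**Figure D1:**
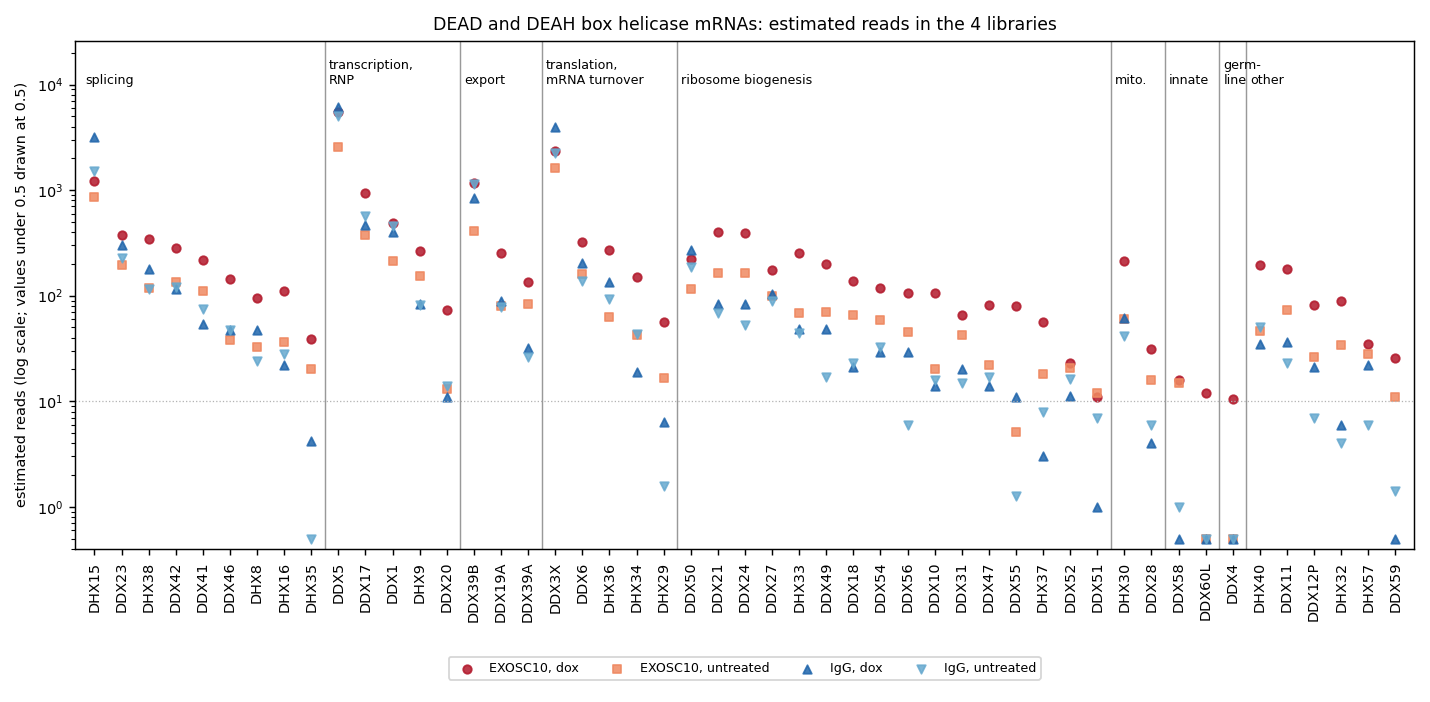
Estimated reads (log scale) of the 49 DEAD and DEAH box helicase mRNAs in the 4 libraries, grouped by role and ordered by reads. Each point is 1 library, values under 0.5 are drawn at 0.5, and the dotted line marks 10 reads, which 10 members did not reach with IgG after doxycycline and 14 did not reach with IgG untreated.

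The first question was which helicase mRNAs came down with EXOSC10 above or below the IgG background. Under TMM scaling no member was counted higher, while other scalings gave calls on the higher side. A member was counted when the libraries of the pair held at least 100 reads together and the scaled levels differed by at least 2-fold. In doxycycline cells 33 members had that many reads and 12 were lower (36.4%), beside 27% of 6269 features counted lower and 13.3% counted higher. In untreated cells 21 members had that many reads and 9 were lower (42.9%), beside 37% of 3602 features lower and 4.97% higher. The members' median log2 ratio was -0.36 in doxycycline cells and -0.95 in untreated cells, beside 0.01 and -0.48 over all features. A member can reach 100 reads through the library in which it is high, so these counts describe the members that passed and not the family. At a minimum of 500 reads 9 of 9 members were lower in doxycycline cells, beside 50.4% of 1467 features, and 6 of 6 in untreated cells, beside 67.4% of 711 features. Of the members under 100 reads, 8 of 16 stood at least 2-fold higher and 1 lower in doxycycline cells, and 8 of 28 higher and 4 lower in untreated cells. The share of all features under 100 reads was not calculated, so these counts are not a trait of the members. At a minimum of 20 reads 11.1% of members were higher in doxycycline cells and 11.9% in untreated cells, beside 25.5% and 16.4% of features.

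These counts depended on the scaling. Scaled to the total count, 26 of 33 members (78.8%) were higher and 0 lower in doxycycline cells, beside 80.9% of features higher. In untreated cells 3 of 21 members (14.3%) were higher and 3 lower by that scaling, beside 31.3% of features higher and 14.5% lower. Scaled to the reads outside ribosomal RNA, 13 were higher and 4 lower in doxycycline cells (DHX15, DDX3X, DDX50 and DDX5), beside 51.9% of features higher and 10.5% lower. In untreated cells 3 were higher and 2 lower (DDX39B and DDX1), beside 38.3% higher and 8.44% lower. Upper-quartile scaling gave 2 higher (DDX10 and DHX34) and 9 lower in doxycycline cells, beside 20.1% of features higher and 23.2% lower. With 1 library per group every count rests on single libraries, and the ribosomal shares given above differed between those libraries; their part in the result was not tested.

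In the additive test over all 4 libraries, which has treatment as covariate, 47 members were tested and 12 were lower with EXOSC10 (limma, Benjamini-Hochberg adjusted over 9579 symbols). Over all symbols 16.3% were lower and 1.27% higher. No member passed on the higher side in that test, while 16 members (34%) had an unadjusted p under 0.05 in either direction, beside 30.7% of all symbols. The test has 1 residual degree of freedom and borrows its spread from the mean-variance trend: without the trend 0 of the 12 passed. Its residual is the change of EXOSC10 over IgG with doxycycline, so the test treats that change as noise. DHX15 and DDX3X, counted below for such a change, are among the 12. Scaled to the total count 0 members were lower and 3 higher, beside 0.0731% and 5.41% of symbols, and scaled to the reads outside ribosomal RNA 6 were lower and 11 higher, beside 6.15% and 36.6%.

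**Figure D2:**
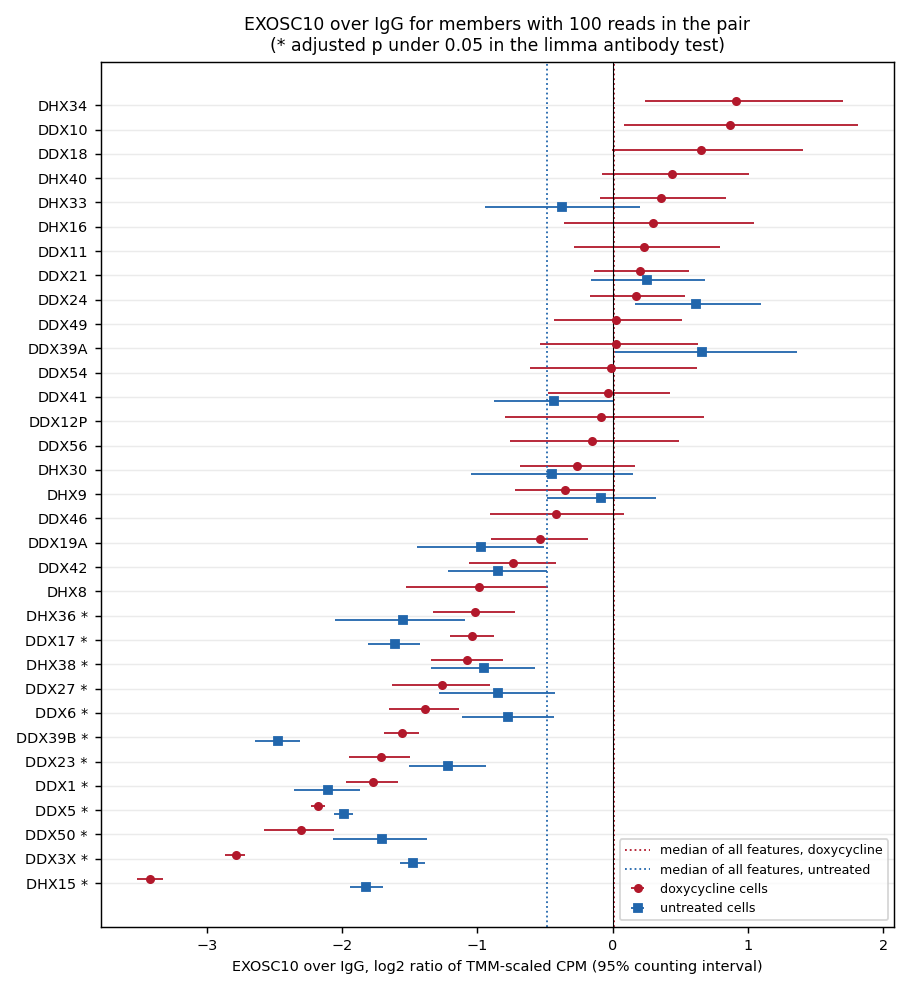
Log2 ratio of EXOSC10 over IgG (TMM-scaled CPM, 95% counting interval) for members with 100 reads or more in the doxycycline pair, in doxycycline cells (circles) and, where that pair also had 100 reads, untreated cells (squares). Dotted lines are the medians of all features, 0.01 and -0.48, and stars mark the 12 members with an adjusted p under 0.05; they lie at or below -0.77 in both kinds of cells.

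Splicing helicases were led by DHX15, which takes the spliceosome apart after splicing. It had 1212 and 863 reads in the doxycycline and untreated EXOSC10 libraries, against 3160 and 1518 reads in the doxycycline and untreated IgG libraries. As scaled CPM these were 86.4 and 164 with EXOSC10, against 925 and 581 with IgG. Both EXOSC10 libraries lay below both IgG libraries. The share of all features that separate in this way was not calculated, here or for the members below. The log2 ratio of EXOSC10 over IgG was -3.42 in doxycycline cells (95% interval -3.52 to -3.33, counting error only), or 10.7-fold lower, and -1.82 in untreated cells (-1.94 to -1.70). In doxycycline cells this was the 37th lowest of 6269 features. DHX15 had whole reads from 1 table entry and no overlapping measured gene, and its adjusted p was 0.00215 (limma, log2 ratio -2.62 over both treatments).

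DDX23, a helicase of the U5 snRNP that acts in spliceosome assembly, had 377 and 196 reads in the doxycycline and untreated EXOSC10 libraries, against 303 and 227 reads in the doxycycline and untreated IgG libraries. Its log2 ratio of EXOSC10 over IgG was -1.72 in doxycycline cells (-1.95 to -1.50) and -1.22 in untreated cells (-1.50 to -0.94), and its adjusted p was 0.00539 (limma). DHX38, which remodels the spliceosome before exon joining, had 346 and 119 reads with EXOSC10, doxycycline and untreated, against 178 and 115 with IgG. It stood at -1.07 (-1.35 to -0.81) in doxycycline cells and -0.95 (-1.34 to -0.58) in untreated cells, with an adjusted p of 0.0331 (limma). DHX38 overlaps the measured gene TXNL4B, and with their reads added the doxycycline ratio was -0.90, under 2-fold; counting by strand is not stated in the sources used here. Upper-quartile scaling also ended its count in doxycycline cells (-0.85) and in the test.

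The remaining splicing helicases with 100 reads were under 2-fold from the bulk. DDX42, which associates with the U2 snRNP factor SF3B, was at -0.74 (-1.06 to -0.42) in doxycycline cells and -0.85 (-1.21 to -0.49) in untreated cells. DDX41, a helicase of the active spliceosome, was at -0.04 (-0.48 to 0.42) and -0.44 (-0.88 to 0.00) in the same cells. DHX8, which releases spliced mRNA, was at -0.99 in doxycycline cells (-1.53 to -0.48), just inside 2-fold, and was counted with median-of-ratios scaling (-1.07). DDX46, which acts at the branch site, was at -0.42 in doxycycline cells and, from 85 reads, at -1.29 (-1.97 to -0.67) in untreated cells. DHX16, which activates the spliceosome, had the highest ratio of the 8 splicing members with 100 reads in doxycycline cells, 0.30 (-0.36 to 1.04). DHX35, found in the catalytic spliceosome, had 39.1 and 20.2 reads in the doxycycline and untreated EXOSC10 libraries, against 4.19 and 0.00106 reads in the doxycycline and untreated IgG libraries. Against a floor of 3 reads in the untreated IgG library this was 3.36-fold higher with EXOSC10, from a member too thinly read to be counted. Its log2 counting interval in untreated cells began at 1.31.

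Among helicases of transcription and RNP assembly, 3 of the 4 with enough reads were lower with EXOSC10 in each kind of cell: DDX5, DDX17 and DDX1. DDX5, a transcriptional co-regulator that also works in microRNA processing, had the most reads of any member. It had 5534 and 2560 reads in the doxycycline and untreated EXOSC10 libraries, against 6090 and 5050 reads in the doxycycline and untreated IgG libraries. As scaled CPM these were 394 and 487 with EXOSC10, against 1784 and 1932 with IgG, so the antibodies did not overlap under TMM scaling. With total-count scaling DDX5 was higher with EXOSC10 in doxycycline cells, so the separation depended on the scaling. Under TMM scaling the log2 ratio was -2.18 in doxycycline cells (-2.23 to -2.12) and -1.99 in untreated cells (-2.06 to -1.92). The adjusted p of DDX5 was 0.00431 (limma). DDX5 overlaps CEP95; with the reads of both added its ratios were -2.16 and -1.97.

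DDX17, the close paralogue of DDX5, had 939 and 374 reads in the doxycycline and untreated EXOSC10 libraries, against 471 and 569 reads in the doxycycline and untreated IgG libraries. Its ratio was -1.04 in doxycycline cells (-1.21 to -0.88) and -1.61 in untreated cells (-1.81 to -1.42), with an adjusted p of 0.00811 (limma). The doxycycline value ended under 2-fold with the reads of the overlapping gene KDELR3 added (-0.93) and with upper-quartile scaling (-0.81). DDX1, a part of the tRNA ligase complex, had 483 and 211 reads with EXOSC10, doxycycline and untreated, against 403 and 453 with IgG. Its ratio was -1.77 in doxycycline cells (-1.97 to -1.58) and -2.10 in untreated cells (-2.35 to -1.87), and its adjusted p of 0.00164 was the smallest of the members (limma). DHX9, which resolves duplexes and RNA:DNA hybrids, stood apart from these at -0.36 (-0.72 to 0.01) in doxycycline cells and -0.09 (-0.49 to 0.32) in untreated cells. DDX20, a part of the SMN complex, had 74 and 13 reads in the doxycycline and untreated EXOSC10 libraries, against 11 and 14 in the doxycycline and untreated IgG libraries.

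The mRNA export helicases split between close paralogues. DDX39B, the helicase of the TREX export complex and of early spliceosome assembly, had 1174 and 409 reads in the doxycycline and untreated EXOSC10 libraries, against 843 and 1131 reads in the doxycycline and untreated IgG libraries. As scaled CPM these were 83.7 and 77.8 with EXOSC10, against 247 and 433 with IgG, with no overlap under TMM scaling. With total-count scaling DDX39B was higher with EXOSC10 in doxycycline cells, so this too depended on the scaling. Under TMM scaling its log2 ratio was -1.56 in doxycycline cells (-1.69 to -1.43) and -2.47 in untreated cells (-2.64 to -2.31). The untreated value was the 100th lowest of 3602 features, and the adjusted p of DDX39B was 0.00213 (limma). DDX39A, its paralogue with a similar role, had 134 and 83 reads with EXOSC10, doxycycline and untreated, against 32 and 26 with IgG. It stood at 0.02 (-0.54 to 0.63) in doxycycline cells and 0.66 (0.02 to 1.36) in untreated cells, with intervals that did not meet those of DDX39B. DDX19A, which remodels mRNPs at the nuclear pore, had 252 and 79.5 reads with EXOSC10, doxycycline and untreated, against 89.4 and 78 with IgG, and ratios of -0.54 (-0.90 to -0.18) and -0.97 (-1.45 to -0.51). DDX19A has a near-identical copy, DDX19B, and carried fractions of reads, so its values are uncertain.

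Helicases of translation and cytoplasmic mRNA turnover included DDX3X, the second lowest member after DHX15 in doxycycline cells. DDX3X, which helps ribosomes through structured leaders, had 2358 and 1623 reads in the doxycycline and untreated EXOSC10 libraries, against 3965 and 2250 reads in the doxycycline and untreated IgG libraries. As scaled CPM these were 168 and 309 with EXOSC10, against 1161 and 861 with IgG, again without overlap. The ratio of EXOSC10 over IgG was -2.79 in doxycycline cells (-2.86 to -2.71), or 6.90-fold lower, and -1.48 in untreated cells (-1.57 to -1.39), with an adjusted p of 0.0045 (limma). DDX6, which represses translation and promotes decapping in P bodies, had 322 and 161 reads with EXOSC10, doxycycline and untreated, against 206 and 137 with IgG. It was at -1.39 (-1.65 to -1.14) in doxycycline cells and -0.77 (-1.11 to -0.44) in untreated cells, with an adjusted p of 0.0306 (limma).

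DHX36, which unwinds G-quadruplexes, had 272 and 63 reads in the doxycycline and untreated EXOSC10 libraries, against 135 and 93 in the doxycycline and untreated IgG libraries. Its ratio was -1.02 in doxycycline cells (-1.33 to -0.72) and -1.55 in untreated cells (-2.05 to -1.09), with an adjusted p of 0.0199 (limma). The doxycycline value fell short of 2-fold with a pseudocount of 1 CPM (-0.99) and with upper-quartile scaling (-0.80). DHX34, a factor of nonsense-mediated decay, lay on the other side: 149 and 42 reads in the doxycycline and untreated EXOSC10 libraries, against 19 and 43 in the doxycycline and untreated IgG libraries. At 0.91 (0.24 to 1.70) in doxycycline cells it had the highest ratio of the members with 100 reads, short of 2-fold, while in untreated cells its 85 reads gave -1.02. DHX29, which helps small ribosomal subunits scan, had 56.9 and 16.8 reads with EXOSC10, doxycycline and untreated, against 6.35 and 1.56 with IgG.

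The 16 ribosome biogenesis helicases were the largest group. With 100 reads, 10 of them had a median ratio of 0.10 in doxycycline cells, where 2 were lower, and 5 had a median of -0.37 in untreated cells, where 1 was lower. DDX50 and DDX21 are nucleolar paralogues that neighbour each other on chromosome 10, DDX50 from 68901315 to 68946847 and DDX21 from 68956170 to 68985068 (GRCh38.p14). DDX50 had 224 and 115 reads in the doxycycline and untreated EXOSC10 libraries, against 272 and 188 in the doxycycline and untreated IgG libraries. Its ratio was -2.30 in doxycycline cells (-2.58 to -2.06) and -1.71 in untreated cells (-2.06 to -1.37), with an adjusted p of 0.00199 (limma). DDX21 had 399 and 166 reads with EXOSC10, doxycycline and untreated, against 84.3 and 69.1 with IgG, and ratios of 0.20 (-0.14 to 0.56) and 0.25 (-0.16 to 0.68). The intervals of these neighbours did not meet in either kind of cell. DDX21 carried fractions of reads in every library, so its values are uncertain, while DDX50 had whole reads.

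DDX27, which acts in large-subunit assembly, was the other ribosome biogenesis member counted lower. It had 175 and 99 reads in the doxycycline and untreated EXOSC10 libraries, against 103 and 89 in the doxycycline and untreated IgG libraries. It was at -1.26 in doxycycline cells (-1.63 to -0.91) and -0.85 in untreated cells (-1.28 to -0.42). Its adjusted p of 0.0475 (limma) passed narrowly and was lost with upper-quartile scaling (0.0742), a pseudocount of 0.05 CPM (0.0582) or no treatment covariate (0.061). DDX24, a nucleolar helicase, had 390 and 164 reads with EXOSC10, doxycycline and untreated, against 84 and 53 with IgG, and was at 0.17 (-0.17 to 0.53) and 0.62 (0.17 to 1.10). DDX10, of small-subunit assembly, was the highest of these 10 in doxycycline cells at 0.86 (0.09 to 1.81), from 107 reads with EXOSC10 against 14 with IgG. DDX18, DHX33, DDX49, DDX54 and DDX56 lay between -0.15 and 0.65 in doxycycline cells, and DHX33 was at -0.37 (-0.95 to 0.20) in untreated cells. DDX31, DDX47, DDX51, DDX52, DDX55 and DHX37 had fewer than 100 reads in both antibody pairs. Among thinly read values DHX37 was 3.88-fold higher with EXOSC10 in doxycycline cells (log2 interval 0.56 to 4.50), from 56 reads with EXOSC10 against 3 with IgG. In untreated cells DDX56 was at 1.81 (0.67 to 3.42), from 45 against 6 reads, and DDX49 at 1.01 (0.25 to 1.89), from 70 against 17 reads.

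Of the other members, none was counted over IgG. DHX30, of mitochondrial RNA granules, was at -0.26 (-0.68 to 0.16) in doxycycline cells and -0.45 (-1.05 to 0.15) in untreated cells. DDX28, of mitochondrial ribosome assembly, had 31 and 16 reads with EXOSC10, doxycycline and untreated, against 4 and 6 with IgG. DHX40 and DHX57 are little studied; DHX40 was at 0.44 (-0.08 to 1.01) in doxycycline cells, and DHX57 had 35 and 28 reads with EXOSC10, doxycycline and untreated, against 22 and 6 with IgG. DHX32, also little studied, had 90 and 34 reads with EXOSC10, doxycycline and untreated, against 6 and 4 with IgG, and the smallest p of the members on the higher side (log2 ratio 1.85, adjusted p 0.102, limma). DHX32 overlaps BCCIP, and with that gene's reads added it was counted higher in doxycycline cells (1.15) and untreated cells (1.39).

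DDX11 is a DNA helicase of sister-chromatid cohesion, and DDX12P is its near-identical pseudogene. DDX11 had 178 and 73 reads in the doxycycline and untreated EXOSC10 libraries, against 36.8 and 23 in the doxycycline and untreated IgG libraries. DDX12P had 81.1 and 26.2 reads with EXOSC10, doxycycline and untreated, against 21 and 7 with IgG. In doxycycline cells their ratios over IgG were 0.23 (-0.28 to 0.79) and -0.09 (-0.80 to 0.67). Reads of these copies cannot be told apart with certainty, and both held fractions of reads.

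The remaining members, like several of those above, were low with IgG. DDX58, the sensor RIG-I, had 16 and 15 reads in the doxycycline and untreated EXOSC10 libraries, against 0 and 1 in the doxycycline and untreated IgG libraries. Against a floor of 3 reads it was 1.30-fold higher in doxycycline cells, where its log2 counting interval began at -0.09 and took in 0. DDX59, linked to ciliary signalling, had 25.8 and 11 reads with EXOSC10, doxycycline and untreated, against 0.138 and 1.41 with IgG. Against the same floor it was 2.09-fold higher in doxycycline cells, where its log2 counting interval began at 0.55. DDX60L, related to an interferon-induced helicase, had 12 reads and DDX4, the germline helicase VASA, 10.5 reads in the doxycycline EXOSC10 library and 0 in the other libraries. That library was also the one with most reads outside ribosomal RNA. Against the floor for the untreated EXOSC10 library, DDX60L was 1.49-fold and DDX4 1.32-fold higher in the doxycycline EXOSC10 library. Their log2 counting intervals began at 0.05 and -0.16, so that of DDX4 took in 0. A table entry was present only where some library reached 10 reads, so such members were listed through their highest library.

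EXOSC10 over IgG ordered the members alike with and without doxycycline. Across the 21 members with 100 reads in both pairs, the ratios in doxycycline and untreated cells had Pearson r of 0.79 and Spearman rho of 0.84, and 20 of 21 had the same sign. Over all 3582 features with such reads r was 0.79 and rho 0.81, so the likeness was that of the whole table. The pairs shared no library, and genes are not independent replicates.

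Members with higher levels tended to have lower ratios. Across 33 members the doxycycline ratio of EXOSC10 over IgG against the mean log2 level in the untreated libraries had r of -0.80 and rho of -0.75, beside -0.54 and -0.53 over 6269 features. The untreated ratio against the mean level in the doxycycline libraries had r of -0.70 and rho of -0.78 across 21 members, beside -0.28 and -0.31 over 3602 features. A minimum on the reads of the pair that gives the ratio can itself bring in thin members through their EXOSC10 reads. With the minimum set on the other pair, a choice made after seeing the data, the doxycycline ratio had r of -0.78 and rho of -0.82 across 21 members, beside -0.41 and -0.41 over 3602 features. The untreated ratio then had r of -0.65 and rho of -0.67 across 33 members, beside -0.38 and -0.40 over 6269 features. These are descriptions across genes, the levels were not divided by length, and the 4 libraries share a cell line and a library kit.

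The main comparison of the study was EXOSC10-bound RNA with and without doxycycline, and no helicase mRNA with 100 reads reached 2-fold in it. Of the 36 members with 100 reads, 0 were higher and 0 lower, beside 5.84% of 6579 features higher and 4.2% lower. The members' median was -0.14 and that of the features -0.06. The lowest of the 36 was DHX15 at -0.93 (-1.05 to -0.80) and the highest DDX10 at 0.97 (0.30 to 1.77), from 107 reads with doxycycline and 20 reads untreated. Counting intervals lay below 0 for 12 members and above 0 for 4 (DDX10, DHX36, DHX40 and DHX33), which compares these libraries and not the conditions. The matching shares of all features were not calculated, so no tilt of the members is read from these counts. Of the 13 members under 100 reads, 4 stood at least 2-fold higher (DDX55, DDX20, DDX4 and DDX60L) and 4 lower (DDX51, DDX58, DDX52 and DHX57). The share of features under 100 reads was not calculated. At a minimum of 20 reads 4.26% of members were higher and 8.51% lower, beside 16.4% and 7.97% of features. Scaled to the total count 16 members (44.4%) were higher and 0 lower, beside 47.8% of features higher; DDX10 passed 2-fold with upper-quartile or non-ribosomal scaling and DHX15 with median-of-ratios scaling (-1.03).

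The ranges by role that follow cover only members with 100 reads. Splicing members ran in the doxycycline ratio with EXOSC10 up to DDX46 at 0.49 (-0.02 to 1.06). Ribosome biogenesis members ran from DDX31 at -0.76 (-1.37 to -0.20) to DDX10, with DHX33, a helicase of ribosomal RNA transcription, at 0.47 (0.09 to 0.89). Export members ran from DDX39A at -0.72 (-1.13 to -0.32) to DDX19A at 0.24, with DDX39B at 0.10 (-0.06 to 0.27). Translation and turnover members ran from DDX3X at -0.88 (-0.97 to -0.79) to DHX36 at 0.68 (0.29 to 1.11), with DHX34 at 0.40 (-0.09 to 0.94). The 4 transcription and RNP members with 100 reads were below 0: DHX9 at -0.61 (-0.91 to -0.32), DDX5 at -0.30 (-0.37 to -0.24), DDX1 at -0.22 (-0.46 to 0.02) and DDX17 at -0.09 (-0.26 to 0.09).

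With IgG, the background of the pulldown, doxycycline gave no counted member either: 0 higher and 0 lower of 19, beside 2.75% of 3022 features higher and 3.81% lower. The median was -0.10 for the members and -0.07 for the features. Of these 19, DDX41 was lowest at -0.84 (-1.38 to -0.32) and DHX15 highest at 0.67 (0.58 to 0.76). DDX39B was at -0.81 (-0.94 to -0.68), DDX17 at -0.66 (-0.84 to -0.48), DDX1 at -0.55 (-0.75 to -0.36) and DDX3X at 0.43 (0.36 to 0.51). Scaled to the total count, 5 members (26.3%) were lower and 0 higher, beside 26.5% of features lower.

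The additive doxycycline test called 0 of 47 members (limma), beside 0% of 9579 symbols higher and 0% lower. At an unadjusted p under 0.05 it held 453 symbols and 1 member, DDX55. DDX55, of large-subunit assembly, had 80.4 and 11 reads in the doxycycline EXOSC10 and IgG libraries, against 5.14 and 1.27 in the untreated EXOSC10 and IgG libraries (log2 ratio 2.32, adjusted p 0.842, limma). Doxycycline over untreated, it stood at 2.33 (1.28 to 4.18) with EXOSC10 and 2.31 (0.16 to 7.19) with IgG, higher in both doxycycline libraries and under 100 reads in each pair. Its doxycycline reads lay on 1 entry with EXOSC10 and on another with IgG. DDX55 overlaps the measured gene EIF2B1. With the reads of overlapping genes added, 37 members, DDX55 among them, had 100 reads in the EXOSC10 pair, and 0 were higher with doxycycline. Next came DDX41, with 216 and 54 reads in the doxycycline EXOSC10 and IgG libraries, against 110 and 74.2 in the untreated EXOSC10 and IgG libraries (-0.64), and DDX51, with 11 and 1 against 12 and 7 reads in the same libraries (-1.94), both also at an adjusted p of 0.842 (limma).

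Setting the antibodies against each other, the change of EXOSC10 over IgG with doxycycline was counted for 2 of the 19 members with 100 reads in each antibody's pair, both lower, beside 11% of 2940 features lower and 4.73% higher. DHX15 changed by -1.60 (-1.75 to -1.44) and DDX3X by -1.31 (-1.43 to -1.19) on the log2 scale. Both were lower with doxycycline in the EXOSC10 libraries and higher with doxycycline in the IgG libraries. DHX15 was the 97th lowest and DDX3X the 166th lowest of 2940 features. DDX39B had the highest change of the 19, 0.91 (0.71 to 1.12), followed by DDX17 at 0.57 (0.32 to 0.82) and DHX36 at 0.53 (-0.02 to 1.08). Scaled to the total count 17 members (89.5%) were higher and 0 lower, beside 77.2% of features higher. DHX15 was then at 0.08 and DDX3X at 0.37, so the sign of these changes depended on the scaling. Median-of-ratios, upper-quartile and non-ribosomal scaling each gave 2 lower and 0 higher. Beside these, 13%, 9.59% and 10.4% of features were lower. Among members under 100 reads in a pair, 10 of 30 changed by at least 2-fold upward and 4 downward, among them DHX34 at 1.93 (1.01 to 2.85) and DHX57 at -2.45 (-3.94 to -0.96). The share of features under that limit was not calculated. At a minimum of 20 reads 13.2% of members changed upward and 10.5% downward, beside 12.2% and 14.3% of features.

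**Figure D3:**
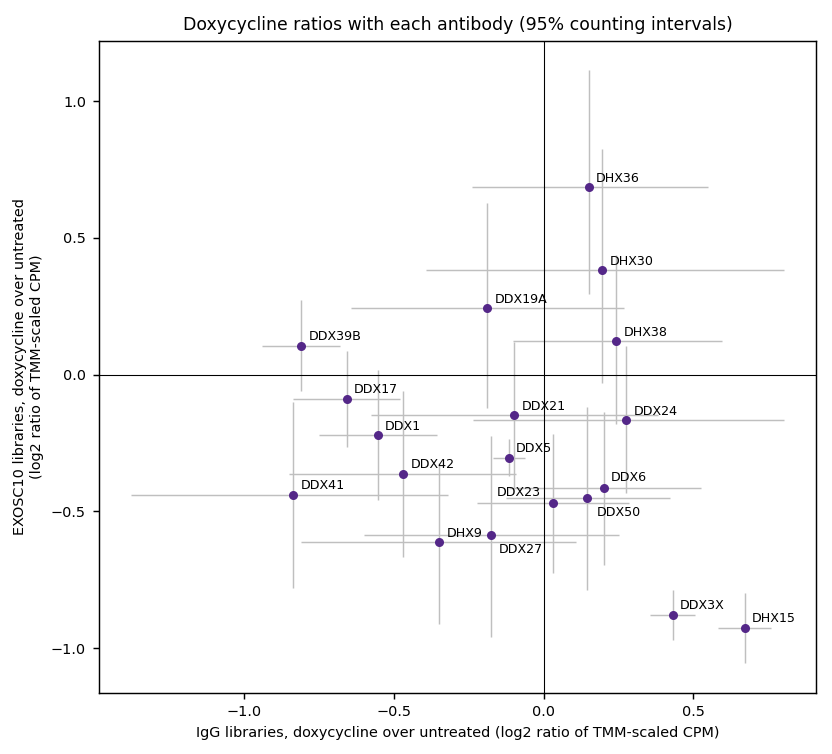
Log2 ratio of doxycycline over untreated (TMM-scaled CPM) in the EXOSC10 libraries (vertical axis) against that in the IgG libraries (horizontal axis) for the 19 members with 100 reads in each pair; bars are 95% counting intervals. DHX15 and DDX3X lie at the lower right, lower with EXOSC10 and higher with IgG, and no member passes 1 or -1 on either axis.

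The doxycycline ratios with the 2 antibodies were not alike across the 19 members (r -0.16, rho -0.14), nor across 2940 features (r -0.06, rho 0.01). DHX15 and DDX3X set the lower right of that plot, and DDX39B and DDX17 lay lower with IgG than with EXOSC10.

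Many symbols had several entries in the table, and for some members these entries behaved differently. The 49 members had 90 entries; 25 had 1 entry and 24 had several. Entries carry no transcript name, and their reads are estimates that include fractions. DDX5 had 4 entries whose shares were alike between treatments and differed between antibodies. Its first entry held 82.3% and 85.1% of DDX5 reads in the doxycycline and untreated EXOSC10 libraries, against 50.8% and 55.2% in the doxycycline and untreated IgG libraries. Its second entry held 6.60% and 5.36% with EXOSC10, doxycycline and untreated, against 34.8% and 31.7% with IgG. The log2 ratio of EXOSC10 over IgG was -1.48 in doxycycline cells and -1.36 in untreated cells for the first entry, and -4.57 and -4.54 for the second. Entry 3 was at -2.55 and -2.45 and entry 4 at -2.53 and -2.43 in doxycycline and untreated cells, so all 4 entries were more than 2-fold lower with EXOSC10 under TMM scaling.

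DDX39B entries did not repeat in this way. Its first entry held 37.2% and 7.91% of DDX39B reads in the doxycycline and untreated EXOSC10 libraries, against 71.0% and 59.5% in the doxycycline and untreated IgG libraries. Its second entry held 24.3% and 90.3% with EXOSC10, doxycycline and untreated, against 28.2% and 39.6% with IgG. Entry 3 held 38.5% in the doxycycline EXOSC10 library and at most 1.75% in the other libraries, where it stood 3.96 on the log2 scale above IgG in doxycycline cells. For DDX17 the first entry held 35.6% and 77.4% of the reads with EXOSC10, doxycycline and untreated, against 51.5% and 62.9% with IgG. For DDX11, DDX31 and DHX8 the reads lay on different entries in different libraries, often on several at once. The exception was DDX31 in the doxycycline libraries, where the division was alike with both antibodies. The second entry of DDX49 held 76.8% of its reads in the doxycycline IgG library, against at most 0.14% elsewhere. Sums over a symbol do not depend on this division.

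**Figure D4:**
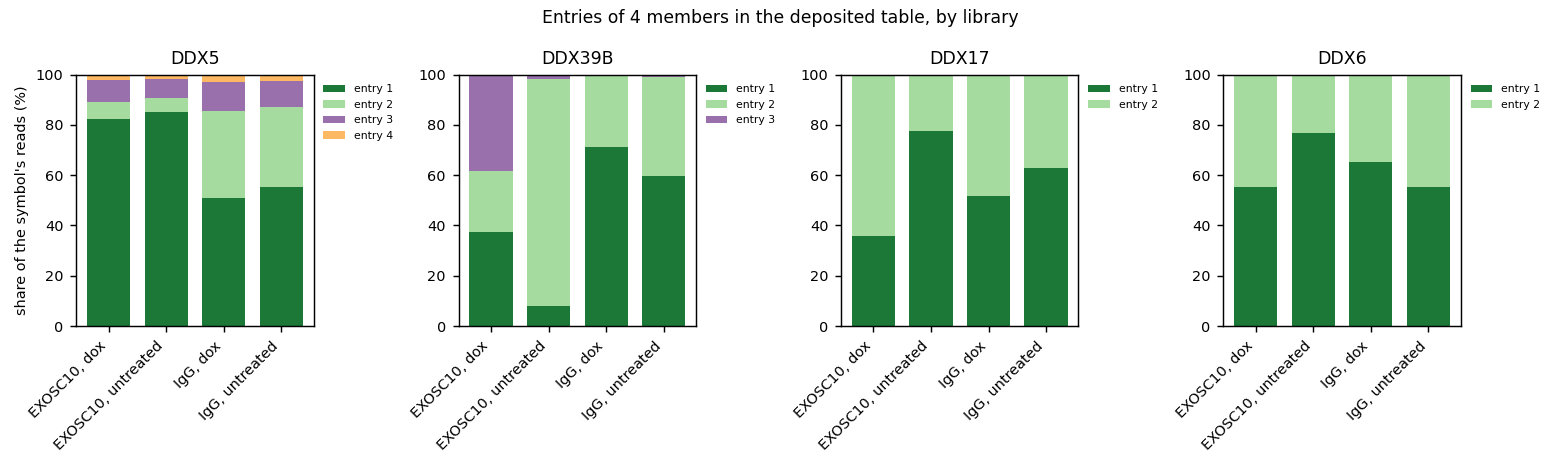
Share of a symbol's reads (%) held by each of its table entries in the 4 libraries, for DDX5, DDX39B, DDX17 and DDX6. The second DDX5 entry is at 6.60% and 5.36% in the EXOSC10 libraries and at 34.8% and 31.7% in the IgG libraries, while the DDX39B entries differ between the EXOSC10 libraries.

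RNA helicases outside the DDX and DHX names were counted by the same limits. Of 22 listed, 19 were measured. In doxycycline cells 5 of 15 with enough reads were lower and 2 higher, beside 27% and 13.3% of features. In untreated cells 2 of 8 were lower and 0 higher, beside 37% and 4.97%. These counts turned with the scaling too. By the total count 14 were higher and 0 lower in doxycycline cells, beside 80.9% and 0.542% of features. In untreated cells 2 were higher and 1 lower, beside 31.3% and 14.5%. By the reads outside ribosomal RNA 6 were higher and 0 lower in doxycycline cells, beside 51.9% and 10.5%. In untreated cells 2 were higher and 0 lower by that scaling, beside 38.3% and 8.44%. EIF4A1 and EIF4A2, the translation initiation helicases, were lower in both, EIF4A2 at -1.74 in doxycycline cells and -1.84 in untreated cells and EIF4A1 at -1.36 and -1.62. In doxycycline cells SNRNP200, the U5 helicase that unwinds U4 from U6, was at -1.38, DICER1, the microRNA nuclease, at -1.38, and MTREX, the helicase that feeds RNA to the nuclear exosome, at -1.01. HELZ2, an interferon-induced helicase, at 1.35 and MOV10, a helicase of silencing complexes, at 1.03 were higher there. With doxycycline over untreated, MOV10 was the member of this list higher in the EXOSC10 libraries (1 of 15, at 1.57, from 138 against 16.7 reads) and DICER1 the member higher with IgG (1 of 7, at 1.25), with 0 lower in either. Of features, 5.84% were higher and 4.2% lower with EXOSC10, and 2.75% and 3.81% with IgG. By the total count 8 of this list were higher with EXOSC10 and 2 lower with IgG, beside 47.8% and 26.5% of features. By the reads outside ribosomal RNA 1 was higher with either antibody and 0 lower. There 8.92% of features were higher with EXOSC10 and 4.33% with IgG.

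Cofactors that activate or hold the helicases were measured for 34 of 35 listed genes. In doxycycline cells 8 of 25 were lower over IgG and 4 higher, beside 27% and 13.3% of features. In untreated cells 6 of 13 were lower and 0 higher, beside 37% and 4.97%. By the total count 18 were higher and 1 lower in doxycycline cells, beside 80.9% and 0.542% of features. In untreated cells 2 were higher and 3 lower, beside 31.3% and 14.5%. By the reads outside ribosomal RNA 8 were higher and 4 lower in doxycycline cells, beside 51.9% and 10.5%. In untreated cells 3 were higher and 0 lower by that scaling, beside 38.3% and 8.44%. CNOT1, the scaffold of the deadenylase complex that binds DDX6, was at -3.82 in doxycycline cells and -1.87 in untreated cells. The DDX6 partners PATL1, at -2.02 and -1.90, and LSM14A, at -1.85 and -1.53, and the G-patch proteins SON, at -2.33 and -1.63, RBM5, at -2.31 and -2.04, and RBM10, at -2.18 and -1.73, were lower in doxycycline and untreated cells as well. EIF4ENIF1, another DDX6 partner, at -1.85 and EIF4G1, the scaffold that binds EIF4A, at -1.40 were lower in doxycycline cells. GPATCH4, a nucleolar G-patch protein, at 1.63, PDCD4, an inhibitor of EIF4A, at 1.55, GPKOW, a spliceosomal G-patch protein, at 1.31 and NKRF, a G-patch protein that binds DHX15, at 1.01 were higher there.

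With doxycycline over untreated, GLE1, which activates the DDX19 helicases, at 1.47 and THOC5, a TREX subunit, at 1.20 were higher in the EXOSC10 libraries. CNOT1 at -1.16 and RBM5 at -1.0 were lower, 2 each way of 25, beside 5.84% of features higher and 4.2% lower. By the total count 11 cofactors were higher and 0 lower, beside 47.8% and 0.122% of features. By the reads outside ribosomal RNA 3 were higher and 0 lower, beside 8.92% and 2.37%. CNOT1 and RBM5 were thus counted under neither. With IgG, EDC3, a decapping enhancer that binds DDX6, was lower at -1.41, 1 of 14, beside 3.81% of features. By the total count 3 cofactors were lower and by the reads outside ribosomal RNA 1, beside 26.5% and 2.38%. The change of EXOSC10 over IgG was counted for CNOT1 (-1.96) and EDC3 (1.92) of 13 cofactors, beside 11% of features lower and 4.73% higher. By the total count 10 were higher and 0 lower, beside 77.2% and 0.374%. By the reads outside ribosomal RNA it was 1 each way, beside 4.86% higher and 10.4% lower. CNOT1 had 687 and 577 reads in the doxycycline and untreated EXOSC10 libraries, against 2374 and 1048 in the doxycycline and untreated IgG libraries.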

How the data were processed

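The authors deposited 1 table of CPM of 4 libraries, read as CPM from its values: each column sums to 1000000 beside a constant of 0.0001 on each entry, which was taken off. Per the submitters' processing notes, STAR and Partek were used with hg38; how reads were assigned, and by which strand, is not given in the sources used here. All 24015 entries were summed to 12838 symbols. Low values lie on steps of 1 read (0.181, 0.236, 0.132 and 0.269 CPM in the doxycycline EXOSC10, untreated EXOSC10, doxycycline IgG and untreated IgG libraries), which gave estimated reads; 67.6% to 74.0% of symbols lay within 0.05 of a whole read in a library, so no count model was used. In every library 27 members had whole reads and 22 held fractions in 1 or more. Every entry reached 10 reads in some library.

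Ratios are log2 of TMM-scaled CPM (trimming 30% of ratios and 5% of levels) plus 0.2, which understates low genes, with exact Clopper-Pearson 95% intervals on reads; the change uses summed reciprocal reads. Intervals and floors (3 reads in a library) cover counting error only. A fold against a floor takes the reads of the other library as exact. With 1 library per group these ratios have no test. The limma tests (limma 3.58.1, R 4.3.3, trend, adjusted p under 0.05) took symbols with 10 reads in at least 2 libraries. The other factor stood in for replication. The residual of both tests is the departure from additive effects, which is the change of EXOSC10 over IgG with doxycycline. It is drawn toward the mean-variance trend, so the p-values measure no spread between like libraries. The tests were also tried on simulated data, whose outcome is not given here and is not used as support. Other work used Python 3.11.15 and numpy 2.4.6. Alternatives were other scalings, pseudocounts, read minimums, folds, whole-read symbols and limma settings; single entries and sums over overlapping genes were added after seeing the data.

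Members, lists and tests were chosen with earlier results of these data known. Named genes were every member, with full values for members that were counted in a ratio, had the 3 smallest p of a test, belong to a paralogue pair or stand highest or lowest in a role group, and of other lists those counted. DDX12P and its pairing with DDX11 were added once the table was seen. Coordinates and promoters are from RefSeq GRCh38.p14; 48 members matched a current symbol and 1 an older name.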

Additional observations from a re-analysis of the deposited data

Results flagged for a closer look

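DHX15 and DDX3X moved in opposite directions with doxycycline in the EXOSC10 and IgG libraries. The EXOSC10 ratio minus the IgG ratio was -1.5975 for DHX15 and -1.309 for DDX3X on the log2 scale. DHX15 was at -0.93 with EXOSC10 and 0.67 with IgG, and DDX3X at -0.88 with EXOSC10 and 0.43 with IgG. There is 1 library per group, so the difference was not tested. Scaled to the total count the differences were 0.0763 and 0.3656. The doxycycline IgG library had the highest ribosomal share, 83.8%, and the doxycycline EXOSC10 library the lowest, 56.3%; their part in this was not tested.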

How the results depend on the processing

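The labels carry no replicate numbers to pair libraries by. The antibody test has treatment as its covariate, and without it 11 members were lower in place of 12. Each group has 1 library, so leaving 1 out would leave the tests without residual degrees of freedom.

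Total-count scaling adds 2.4981 to the log2 ratio of EXOSC10 over IgG in doxycycline cells, and 10 of the 12 members counted lower there turned round: DDX1 0.718, DDX17 1.4514, DDX23 0.7712, DDX27 1.2116, DDX39B 0.9355, DDX5 0.3208, DDX50 0.1779, DDX6 1.0977, DHX36 1.4593 and DHX38 1.4102. So did the changes of DDX3X (0.3656) and DHX15 (0.0763). In the limma antibody test DDX17 (0.331), DDX23 (0.1878), DDX27 (0.5901), DDX6 (0.5725), DHX36 (0.3599) and DHX38 (0.6375) turned round, none past the threshold. With non-ribosomal scaling DDX17 (0.0258) and DHX36 (0.0408) in doxycycline cells and DHX38 in the limma test (0.0396) turned round. The cause of the scaling difference was not tested.

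Counts of members that moved by over 1.5 times, or from or to 0, were as follows. Total counts: doxycycline over untreated with EXOSC10 16 higher, with IgG 5 lower; EXOSC10 over IgG 26 higher and 0 lower in doxycycline cells, 3 and 3 in untreated cells; change 17 higher and 0 lower; antibody test 3 higher and 0 lower. Non-ribosomal total: 1 higher with EXOSC10, beside 8.92% of features. Over IgG there were 13 higher and 4 lower in doxycycline cells, and 3 and 2 in untreated cells. The antibody test gave 11 higher and 6 lower. Median of ratios gave 1 lower with EXOSC10, beside 6.43% of features. Upper quartile gave 1 higher with EXOSC10 and 2 higher over IgG in doxycycline cells, beside 7.45% and 20.1%. A minimum of 20 reads gave 2 higher and 4 lower of 47 with EXOSC10, beside 16.4% and 7.97% of features. With IgG it gave 4 higher and 1 lower of 38, beside 8.22% and 7.83%. Over IgG 5 of 45 were higher in doxycycline cells and 5 of 42 in untreated cells, beside 25.5% and 16.4%. Changes were 5 higher and 4 lower of 38, beside 12.2% and 14.3%. A 1.5-fold limit gave 3 higher and 6 lower of 36 with EXOSC10, beside 14.8% and 16.9% of features. With IgG it gave 1 higher and 3 lower of 19, beside 9.79% and 15.4%. Over IgG 3 of 33 were higher in doxycycline cells, beside 26.9%. In untreated cells 2 were higher and 14 lower of 21, beside 15.6% and 47.6%. Changes were 1 higher and 4 lower of 19, beside 13.3% and 25.8%. Whole-read symbols alone left 1 change lower of 12, beside 10.5% of features. The next settings were added after seeing the data. The entry with the highest mean CPM gave 6 higher and 1 lower of 34 with EXOSC10, beside 13.7% and 7.7% of features. It gave 1 higher of 17 with IgG and 5 of 32 over IgG in doxycycline cells, beside 4.89% and 20.3%. Changes were 2 higher and 4 lower of 17, beside 8.25% and 15.5%. Sums with overlapping genes gave 2 higher of 35 in doxycycline cells and 1 of 25 in untreated cells, beside 13.3% and 4.99%. Without the trend 0 members were lower in the antibody test, beside 0% of symbols.

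Reads limit the thin members: 14 had under 10 reads in the untreated IgG library, and the untreated interval of EXOSC10 over IgG left out 0 for 5 of them (DDX56, DDX58, DHX29, DHX32 and DHX35).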
